A study of Mus musculus with 40 samples.

Results

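Histone H3 acetylated at lysine 27 (H3K27ac) was profiled by chromatin immunoprecipitation and sequencing while inguinal preadipocytes of mice were turned into brown-like adipocytes, and the regions described here are those that carried the mark in every preadipocyte library and in no library of the last day. Overlapping peaks (1 bp or more) of the 24 peak lists were joined into 169358 regions. A region was chosen by its calls alone, a call being at least 1 peak in a library's list. It needed a peak in each of the 6 day 0 libraries and in none of the 6 day 9 libraries, and 2187 regions met this rule (the members), among 31329 regions with a peak in 6 of 6 day 0 libraries. The other 29142 of these are called the other day 0 regions. The choice used the calls of days 0 and 9 of both genotypes, so only the calls of days 3 and 6 were tested, and everything said of day 0 or day 9 is a description. The working name of the set, preadipocyte-only regions, is not used as a cell type name, because 5 of its 10 strongest regions lay beside genes known from leukocytes. Of the 100 strongest, 10 were nearest to a gene of a leukocyte list described below.

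The cells were isolated from inguinal white fat of C57BL/6 mice aged 8 to 12 weeks, either wild type (WT) or Hmgn1-/- Hmgn2-/- (DKO), which lack both of these nucleosome-binding proteins in all cells. The tissue was digested with collagenase, strained and plated on collagen, and no sort that would remove other cell types is described. For its RNA sequencing of single cells from such cultures, the paper describes taking out immune, glial and endothelial cells before clustering was repeated. The share of these cells in the libraries used here was not tested. Confluent cultures were day 0. Differentiation medium with insulin, dexamethasone, IBMX, T3 and rosiglitazone was then given for 4 days, followed by insulin and T3, and cells were taken at days 3, 6 and 9. Each genotype and day had 3 libraries (24 in all). The study calls them biological replicates, and the sources used here do not say whether they came from separate animals or cultures, so p-values measure the spread between these libraries.

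Acetylation of H3K27 is laid down by the acetyltransferases p300 and CBP at nucleosomes beside active promoters and enhancers, and it is lost when the factors that recruit them leave. Preadipocytes are fibroblast-like cells that give up their own enhancers and take on those of PPARγ and C/EBP factors as they become adipocytes. Primary cultures of the stromal fraction of fat can also carry macrophages and endothelial cells. PU.1 is a transcription factor of macrophages, other myeloid cells and B cells, and AP-1 (FOS and JUN proteins) is active in most cultured fibroblasts.

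The lists held 47448 (DKO day 6 replicate 3) to 115923 peaks (DKO day 9 replicate 1). Whole reads at each summit could be recovered from fold and p (99.9% or more of peaks within 0.01 of the listed −log10 p), and the lowest local background was 8.61 to 12.8 reads per kb in 23 libraries. WT day 3 replicate 3, with 4.50, was the shallowest. DKO day 0 replicate 2 was called with wider peaks (median 1076 bp, 313 to 376 bp in the others), and without it the rule gave 3744 members. In such bulk samples, fewer cells of a type and less acetylation per cell cannot be told apart.

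The 4 strongest members away from promoters that held the PU.1 word GAGGAAGT within 500 bp of their strongest day 0 summit are shown first, because this word differed most in share between members and the other day 0 regions among the 19 words searched in windows of 1000 bp (1 region for each gene with a symbol). Capitals mark the word or its reverse complement ACTTCCTC, and each stretch is 200 bp of the plus strand of GRCm38 (mm10). They are chr9:121597693-121597892 in an intron of Lyzl4, chr6:146222003-146222202 in an intron of Itpr2, chr6:137696662-137696861 between genes with Strap nearest, and chr7:122260195-122260394 upstream of Prkcb.
Lyzl4 region: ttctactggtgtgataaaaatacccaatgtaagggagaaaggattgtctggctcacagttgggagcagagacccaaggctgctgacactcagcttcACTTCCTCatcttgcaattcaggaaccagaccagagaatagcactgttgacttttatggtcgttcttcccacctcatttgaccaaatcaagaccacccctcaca
Itpr2 region: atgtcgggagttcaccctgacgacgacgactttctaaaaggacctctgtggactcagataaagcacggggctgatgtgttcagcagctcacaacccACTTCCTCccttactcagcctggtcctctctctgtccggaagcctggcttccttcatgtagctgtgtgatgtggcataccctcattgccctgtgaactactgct
Strap region: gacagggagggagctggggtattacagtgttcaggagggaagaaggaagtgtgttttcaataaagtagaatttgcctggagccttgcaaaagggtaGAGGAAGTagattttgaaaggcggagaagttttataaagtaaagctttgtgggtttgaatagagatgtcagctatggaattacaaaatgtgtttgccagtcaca
Prkcb region: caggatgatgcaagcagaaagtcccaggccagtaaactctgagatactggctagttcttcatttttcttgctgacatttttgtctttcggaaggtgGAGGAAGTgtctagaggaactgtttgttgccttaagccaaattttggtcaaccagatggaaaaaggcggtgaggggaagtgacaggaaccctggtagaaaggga
All 4 were still called in at least 2 of 3 libraries of both genotypes at day 3. The Lyzl4 region was called in 6 of 6 libraries of day 3 and the Prkcb region too.

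The second set was drawn from members that were already gone at day 3. These are the 2 strongest regions away from promoters with an AP-1 word (TGACTCA or TGAGTCA, in capitals) and no call in the 12 libraries of days 3 and 6, at chr7:75788205-75788404 (60.2 kb from the nearest start, of Klhl25) and chr11:54155957-54156156 (28.1 kb from P4ha2, a subunit of the enzyme that hydroxylates collagen prolines).
Klhl25 region: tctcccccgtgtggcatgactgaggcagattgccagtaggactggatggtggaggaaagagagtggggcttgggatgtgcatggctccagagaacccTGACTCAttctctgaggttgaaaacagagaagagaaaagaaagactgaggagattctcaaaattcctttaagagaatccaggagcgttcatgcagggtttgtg
P4ha2 region: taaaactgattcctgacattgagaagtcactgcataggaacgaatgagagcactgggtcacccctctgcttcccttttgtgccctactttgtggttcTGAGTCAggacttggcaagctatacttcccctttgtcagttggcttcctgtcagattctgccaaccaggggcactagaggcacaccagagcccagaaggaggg
Both lie between genes, and their median day 0 fold enrichments over local background were 10.1 and 10.1. They are not typical of the 902 members with no call at days 3 and 6, whose median was 5.46. Away from promoters, 25.6% of such members held an AP-1 word, against 31.2% of the other day 0 regions.

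The members were weaker, narrower and farther from promoters than the other day 0 regions. Of the 2187 members, 894 (40.9%) had their strongest day 0 summit in an intron, 845 (38.6%) between genes, 65 (2.97%) in an exon, and 383 (17.5%) came within 1 kb of a transcript start. Of the other day 0 regions, 48.7% reached a transcript start. The median distance from the summit to the nearest protein-coding start was 15.2 kb for members and 4.99 kb for the others. The median width was 1541 bp (461 to 7908 bp) against 2268.5 bp.

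Strength at day 0 is given as MACS2's fold enrichment at the summit, as its −log10 q value, and as the percentile rank of the peak by −log10 q within its own list. The median member had a fold enrichment of 5.77 (quartiles 5.10 and 6.76) and a −log10 q of 9.86, each the median over 6 day 0 libraries, and the other day 0 regions had 8.11 and 17.9. The median rank of members was 47.7, 54.3 and 50.6 in the 3 WT libraries of day 0 and 55.9, 60.1 and 65.4 in the 3 DKO libraries, so the genotypes did not overlap. The other day 0 regions ranked at 75.02 to 79.1 in all 6. These ranks come from the libraries that chose the members and were not tested.

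The limit of the rule cut through a continuous range. The 1076 regions just outside, with 1 call at day 9, had a median day 0 rank of 58.3 against 55.1 for members, and the 1416 regions with 5 of 6 calls at day 0 and none at day 9 had 37.4. In 107 members (4.89%) the weakest of the 6 day 0 calls had a −log10 q under 3, and in 278 (12.7%) it was at least 10.

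By day 3 most members had lost their peak in both genotypes, and by day 6 nearly all had. The 3 WT libraries of day 3 called 29.4%, 33.3% and 11.5% of the members, the last being the shallow replicate 3. The 3 DKO libraries of day 3 called 20.9%, 34.4% and 22.6%, which overlap the WT values. At day 6 the WT libraries called 6.26%, 5.90% and 7.45%. The DKO libraries of day 6 called 5.53%, 5.76% and 1.10%, each below the lowest WT value, and the last is replicate 3 with the shortest list. The plot of calls by day shows the members dropping in both genotypes, while the other day 0 regions averaged 88.0% in WT and 69.6% in DKO at day 6.

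**Figure D1:**
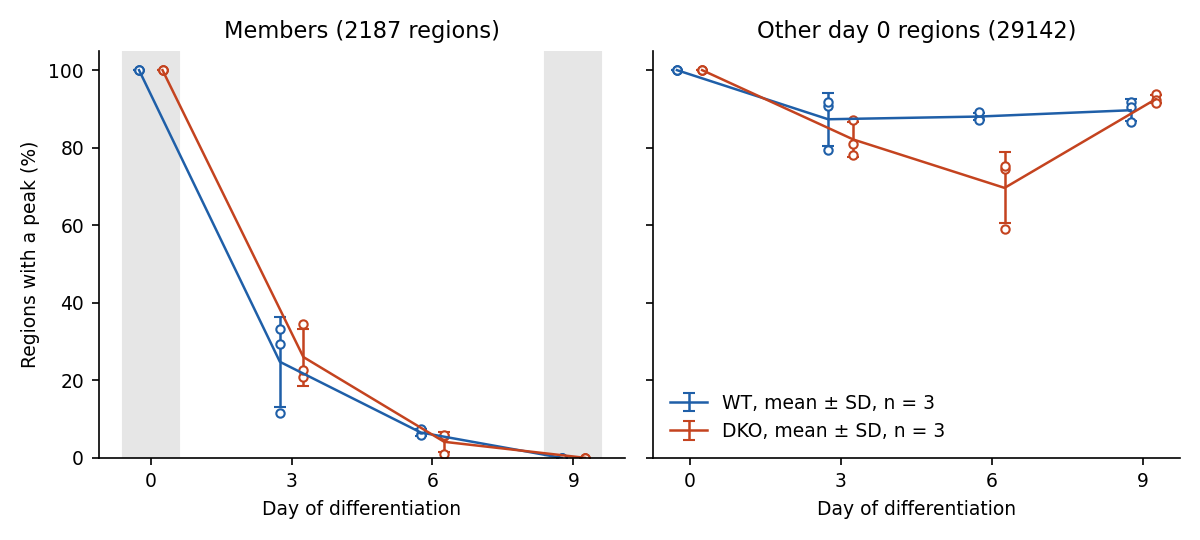
Percent of regions with a peak in each library (open points) by day, for the 2187 members (left) and the 29142 other day 0 regions (right), with the mean ± SD of 3 libraries for WT (blue) and DKO (red). Days 0 and 9 (grey bands, left) are fixed by the rule at 100% and 0%. Members average 24.8% (WT) and 26.0% (DKO) at day 3 and 6.54% and 4.13% at day 6.

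At day 3 the mean was 24.8% ± 11.6 (SD, n = 3) in WT and 26.0% ± 7.35 (SD, n = 3) in DKO, a difference of 1.23 percentage points (exact permutation test, two-sided, p = 0.9, adjusted p = 0.99 by Benjamini-Hochberg over the 11 tests on the members). At day 6 it was 6.54% ± 0.813 (SD, n = 3) against 4.13% ± 2.63 (SD, n = 3), lower in DKO by 2.41 points with no overlap (exact p = 0.1, adjusted p = 0.183), where 0.1 is the smallest p that 3 against 3 allow. Over both days DKO differed by -0.587 points (exact p = 0.89, adjusted p = 0.99, 400 relabellings within day, smallest p 0.005). The genotype difference changed by -3.64 points from day 3 to day 6 (exact p = 0.69, adjusted p = 0.949). Without the shallow WT day 3 replicate 3 the day 3 difference was -5.39 points and the change between days 2.98 points, both of the opposite sign. The fall from day 3 to day 6 was 18.2 points in WT (from 24.8% to 6.54%) and 21.9 points in DKO, with no overlap of the days in either genotype (exact p = 0.1 for each, the smallest possible, adjusted p = 0.183). The rule requires every call at day 0 and none at day 9, which favours a fall between days 3 and 6. No conclusion is drawn from these tests of the fall.

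The DKO lists of days 3 and 6 were mostly shorter (47448 to 82585 peaks, WT 68629 to 105511). Whether list length explains the members' calls in each library was not tested. With the same number of peaks from every list, the 45000 strongest, DKO stayed higher at day 3 (6.34 points), and the direction turned at day 6 and over both days. The WT libraries of day 3 then called 5.17%, 5.94% and 3.61% of the members and the DKO libraries 10.2%, 12.7% and 10.8%. At day 6 the WT libraries called 0.0914%, 0.183% and 0.137% and the DKO libraries 1.28%, 1.65% and 0.914%. DKO was higher at both days with no overlap, by 3.74 points over the 2 days (exact permutation p = 0.005, the smallest that 400 relabellings give, not adjusted). Which of these readings holds for the cells was not tested.

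The members' calls can also be set against the other day 0 regions of the same library. WT libraries of day 3 called 79.5% to 91.7% of those regions and DKO libraries 78.2% to 87.2%. At day 6 the ranges were 87.2% to 89.1% in WT and 59.1% to 75.2% in DKO, which do not overlap. The members' percent minus that of the other regions was -62.6 points in WT and -56.1 in DKO at day 3, and -81.5 and -65.5 at day 6. DKO was thus 6.46 points higher at day 3 and 16 points higher at day 6 (exact p = 0.1 each, adjusted p = 0.183). Over both days the difference was 11.2 points (exact p = 0.005, the smallest possible, adjusted p = 0.055), so it did not pass after adjustment. At day 6 the relative difference comes from the other regions alone, whose DKO libraries were all below the WT libraries. The members' own DKO minus WT difference was -2.41 points at day 6, the opposite sign, and 1.23 points at day 3.

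A member that started strong at day 0 was called more often at day 3. Of the 97 members in the lowest bin of the rank scale (0 to 25), WT libraries called 12.7% ± 6.63 and DKO libraries 6.53% ± 5.09 at day 3 (SD, n = 3). Of the 200 members in the highest bin (75 to 100) they called 45.3% ± 15.9 and 52.8% ± 8.43. At day 6 the same top bin was called at 10.2% ± 0.764 in WT and 10.8% ± 6.33 in DKO. In the bin from 50 to 75, day 3 calls were 28.2% ± 13.3 and 29.8% ± 9.40 for members and 81.1% ± 10.9 and 72.7% ± 7.61 for the other day 0 regions. In the top bin the other regions had 97.6% ± 1.91 and 97.1% ± 1.27, but their ranks reach higher there than the members' maximum of 90.1. Members of low rank were thus not the only ones lost, as the plot by day 0 rank shows. By the rule the other day 0 regions had at least 1 call at day 9 and the members none, which favours the gap between them in every bin.

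**Figure D2:**
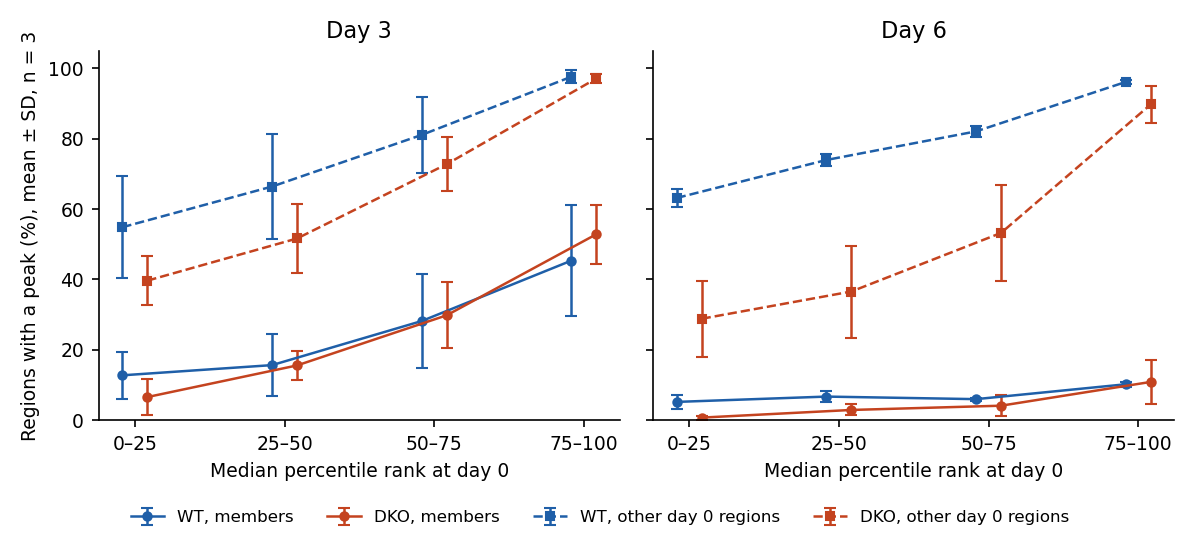
Percent of regions with a peak at day 3 (left) and day 6 (right), mean ± SD of 3 libraries, by the region's median percentile rank at day 0. Solid lines are members (97, 745, 1145 and 200 regions from left to right) and dashed lines the other day 0 regions, for WT (blue) and DKO (red). In each bin the members lie below the others, which the rule favours, as it asks for no day 9 call in members and at least 1 in the others. At day 6 the members average between 0.687% and 10.8%.

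The peaks that remained were small. The covered length of the members at day 0 averaged 1317 kb (1183 to 1438 kb) for WT and 2368 kb (1584 to 3538 kb) for DKO, the highest value being that of the library with wide peaks. At day 3 it was 186 kb ± 111 (SD, n = 3) in WT and 203 kb ± 84.0 (SD, n = 3) in DKO, and at day 6 37.7 kb ± 5.55 and 21 kb ± 14.3. The difference over days 3 and 6 was 0.177 kb (exact permutation p = 1). The median fold enrichment of the called members fell from 5.60 in WT and 6.14 in DKO at day 0 to 4.96 and 5.04 at day 3 and 4.33 and 4.66 at day 6, all group means of 3 libraries. The median rank of the remaining calls averaged 23.8 in WT and 27.9 in DKO over the 2 days (difference 4.09, exact permutation p = 0.13, adjusted p = 0.204).

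Most members followed the same course in both genotypes. With a call defined as 2 of 3 libraries, 1435 members (65.6%) were called at neither day 3 nor day 6 in either genotype, and 264 (12.1%) were called at day 3 alone in both. Called at day 3 in WT alone were 195 members (8.92%) and in DKO alone 197 (9.01%). The matching shares of the other day 0 regions were not computed, so these counts are not a trait of the members. By the same definition, 6.50% of the other day 0 regions in WT and 14.7% in DKO were called at neither day. Only 59 members kept a call at days 3 and 6 in WT and 41 in DKO, and 13 did so in both. In the 12 libraries of the 2 days, 902 members (41.2%) had no call at all. A peak in 6 of 6 libraries was found for 92 members (4.21%) at day 3 and for 0 at day 6.

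Of the 10 strongest members, 5 lay beside genes known from leukocytes. These 5 were judged gene by gene, and no such count was made for other strong day 0 regions. Of the 100 strongest members, 10 (10%) were nearest to a gene of the leukocyte list described below, and of all members 3.80%. That list lacks Fcrls, Apbb1ip and Gmfg. Cd52, a small surface protein of lymphocytes and macrophages, had a region over its start (chr4:134092350-134099686) with fold enrichments of 10.3, 9.81 and 13.4 in WT and 13.7, 8.52 and 12.6 in DKO at day 0. At day 3 it held 9.74, 8.75 and 10.7 in WT and 8.25, 8.13 and 8.56 in DKO, and at day 6 it was called in 1 library of each genotype. All 6 libraries of day 3 thus still had a peak somewhere in this region of 7337 bp. A peak within 1 kb of a Cd52 start was found in 4 of 6 libraries at day 3 and in 0 at day 6.

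Ccl4, a macrophage chemokine, had a region at its start with 10.8, 10.7 and 10.5 in WT and 11.1, 8.96 and 11 in DKO at day 0. These fell to 5.64, 3.69 and 5.89 in WT and 4.88, 4.87 and 4.11 in DKO at day 3. Fcrls, an Fc receptor-like protein of macrophages, had 11.5, 10.6 and 10.6 in WT and 12.7, 9.64 and 15.6 in DKO at day 0 and no call at day 6. In both regions the day 0 values of the genotypes overlapped.

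Apbb1ip encodes RIAM, an adaptor that links Rap1 to integrins and is abundant in blood cells. A region 26.4 kb from its start held 11.6, 10.8 and 10.1 in WT and 14.2, 12.9 and 18.7 in DKO at day 0, all DKO values above all WT values. It was one of the slowest to go, with 9.08, 6.87 and 4.38 in WT and 7.99, 10.1 and 8.03 in DKO at day 3 and calls in 5 of 6 libraries at day 6. Gmfg, an actin regulator of leukocytes, had a region at its start called in 5 of 6 libraries at day 3, then in 0 WT and 3 DKO libraries at day 6 (5.15, 4.33 and 4.74).

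The other 5 of the 10 strongest lay in an intron of Lyzl4 (a lysozyme-like protein), in an intron of Itpr2 (a calcium release channel), 32.4 kb from Rubcnl (an autophagy factor), near Atp5mpl (a small subunit of ATP synthase) and at a start near a gene model without a symbol. Their median day 0 fold enrichments were between 10.7 and 11.7. The Atp5mpl region had a day 3 peak in every WT library and in no DKO library, and the other 4 were called in both genotypes.

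The strongest members with no call at days 3 and 6 had other neighbours. After a region on chromosome 18 in an intron of Slc14a2, a urea transporter, the next was chr11:8763920-8766621, 99.3 kb from Pkd1l1, with 11.9, 10.9 and 11.3 in WT and 11, 13.4 and 14.3 in DKO at day 0. The Klhl25 region held 11.1, 10.1 and 10.2 in WT and 12.4, 9.13 and 8.45 in DKO. The P4ha2 region held 6.47, 10.4 and 6.87 in WT and 10.7, 9.71 and 13.5 in DKO. Their median day 0 folds of 10.1 to 11.6 lay near the 10.5 to 12.3 of the 10 strongest, which kept calls at day 3, as the plot by library shows.

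**Figure D3:**
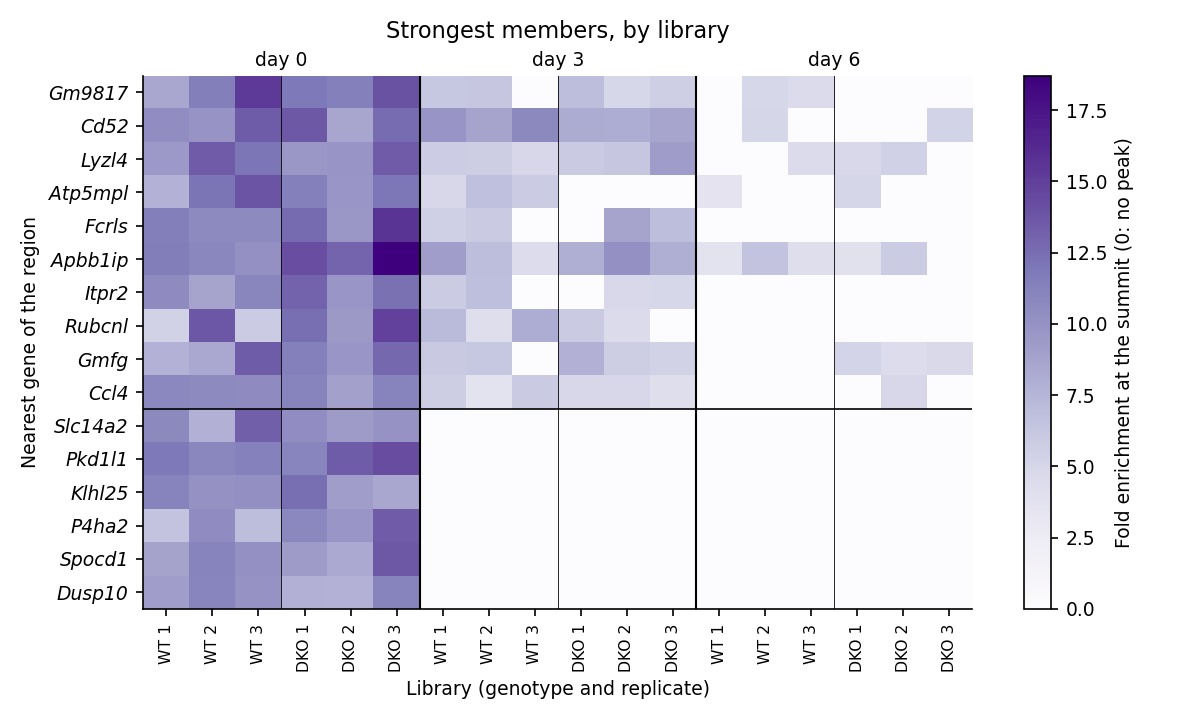
Fold enrichment at the summit (color, 0 for no peak) in each library of days 0, 3 and 6 for the 10 members with the highest median −log10 q at day 0 (above the line) and for the 6 strongest members with no call at days 3 and 6 (below), named by the nearest protein-coding gene. The upper 10 keep peaks in some libraries of day 3, with Cd52 between 8.13 and 10.7 there.

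The members were spread over 1411 genes, taking the nearest protein-coding start within 100 kb of the summit (1909 members, 278 lay farther). Most of these genes, 1065, had a single member, and 101 had 3 or more. Tns3, which encodes tensin 3 of focal adhesions, had the most, with 9 members and 20 other day 0 regions. Its 9 members had median day 0 fold enrichments of 4.88 to 6.90, and none was called at day 6. Tnip3, an inhibitor of NF-kB signaling that binds A20, Nav2, a cytoskeletal navigator protein, and Slc20a1, a phosphate importer, had 6 each. Of the Slc20a1 members, 3 lay at starts of other annotated transcripts, 14.5 to 18.1 kb away.

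The 6 Tnip3 members were the only regions of this gene called in 6 of 6 day 0 libraries. The promoter region (chr6:65589997-65593290) had 9.36, 7.37 and 9.43 in WT and 7.93, 9.63 and 9.64 in DKO at day 0, and a single DKO library called it at day 3. The other 5 had no call at days 3 and 6.

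Of the 8 genes with 5 members, the 6 with the highest summed −log10 q are described, and Cemip and Asap1 are the other two. Dock8, a guanine nucleotide exchange factor of lymphocytes, had 5 members and no other day 0 region, and its promoter region held 10.4, 11 and 7.33 in WT and 12, 12.5 and 10.9 in DKO at day 0, then 8.01, 7.02 and no peak in WT and 6.12, 6.53 and 9.11 in DKO at day 3. Prkcb, protein kinase C beta, and Il10ra, the receptor for interleukin 10, were called 8 and 6 times over their members in WT and 9 and 11 times in DKO at day 3. Prkch (protein kinase C eta), Susd1 (a sushi domain protein) and Sorbs2 (an adaptor of stress fibres) had 8, 9 and 6 other day 0 regions beside their members. The 5 Sorbs2 members, of median fold 4.52 to 6.46, had no call at days 3 and 6.

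Read by gene list, adipocyte genes had no member and preadipocyte markers had them at about the share of all genes. All counts are of list genes with a region called in 6 of 6 day 0 libraries, and 11.6% of all 12143 such genes had a member. Of 26 adipocyte genes, 0 had one. Of 27 preadipocyte and stromal progenitor markers, 3 (11.1%) had 1 each, Thy1, Anxa3 and Cd9. The Cd9 region, in an intron of this tetraspanin, held 5.48, 10.3 and 8.13 in WT and 10.01, 9.80 and 13.6 in DKO at day 0 and no call at days 3 and 6. The Thy1 region held between 4.68 and 6.78 at day 0, 13.2 kb from the gene.

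Lists of fibroblast functions and signaling had members at 5.56% to 22.7% of their genes. Contractile and myofibroblast genes had 5 of 22 (Myh10, Mylk, Cald1, Mrtfa and Mrtfb), and the region at a Mylk start, the myosin light chain kinase, held 5.11, 6.92 and 7.07 in WT and 5.64, 6.15 and 8.70 in DKO at day 0 and nothing at days 3 and 6. Collagens and matrix proteins had 7 of 36 (among them Tnc, Thbs1 and Dcn), matrix proteases and inhibitors 2 of 21 (Timp3 and Plaur, the urokinase receptor), growth factors and their receptors 4 of 26 (among them Igf1 and Pdgfc), and mesenchymal transcription factors 6 of 46. Wnt pathway genes had 4 of 27, TGF-beta and BMP genes 2 of 27, Hippo genes 1 of 17 (Ccn2) and Hox genes 1 of 18 (Hoxb3). AP-1 and ATF genes had 3 of 15, all of the ATF3 and BATF kind (Atf3, Batf2 and Batf3), and the 3 Atf3 members had median folds of 4.96 to 9.08. Chemokines, cytokines and their receptors had 5 of 29.

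Markers of other cell types had 8 of 16, above the share of all genes: Ptprc (CD45) 2 members, Itgam (CD11b) 3, Csf1r 2 and Adgre1 (F4/80) 1 for leukocytes, Kdr 2, Cdh5 (VE-cadherin) 1 and Tek 1 for endothelium, and Msln 1 for mesothelium. The Cdh5 promoter region held 7.61, 7.09 and 9.84 in WT and 9.10, 7.79 and 12.5 in DKO at day 0, was called in 2 of 3 libraries of each genotype at day 3, and in none at day 6. A list of 108 leukocyte genes, written after the strongest members had been seen, had 51 of 98 (52.0%) with a member, and 83 members (3.80%) lay nearest to one of them, against 0.642% of the other day 0 regions and 0.139% of regions found at day 9 alone (all 6 libraries, none of day 0). Since the list was written with the members in view, this is no independent evidence. The plot of gene lists shows the 2 lists at the top.

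**Figure D4:**
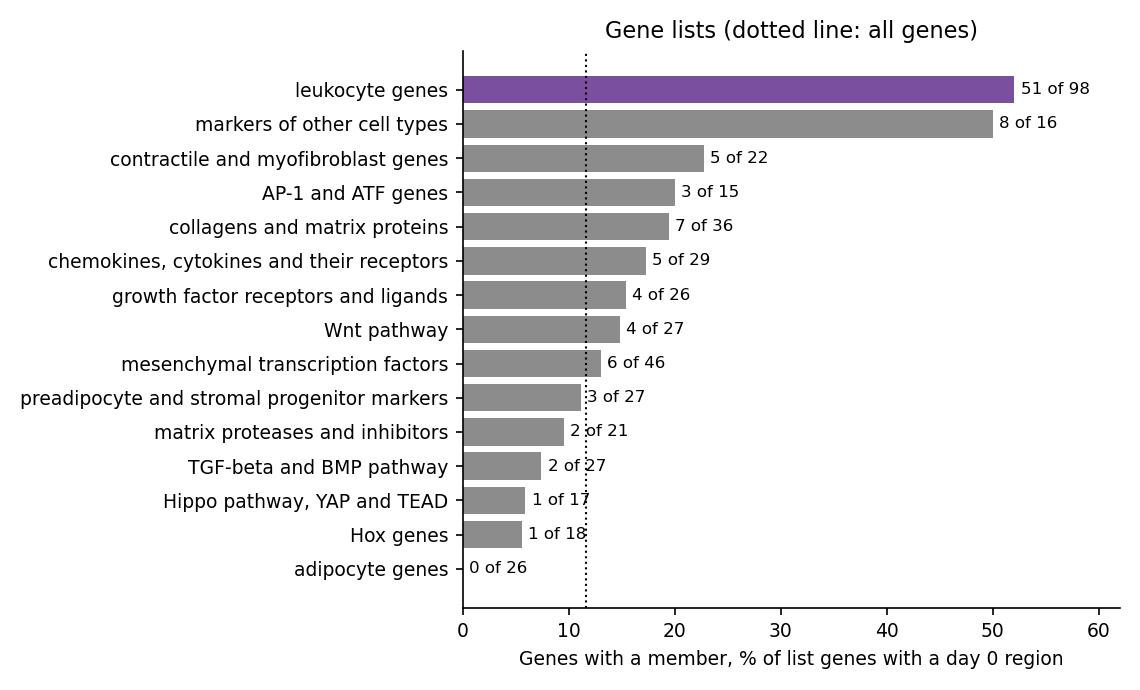
Share of list genes with at least 1 member, in percent of the list genes that had a region called in 6 of 6 day 0 libraries, with the counts beside each bar. The dotted line is the 11.6% of all genes. Leukocyte genes (51 of 98, purple, a list written after the members were seen) and markers of other cell types (8 of 16) stand highest, and adipocyte genes have 0 of 26.

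Promoter peaks, within 1 kb of a start, were used to check the cell types in the libraries. Of the 9 preadipocyte markers, Pdgfra, Pdgfrb, Ly6a, Thy1, Col1a1 and Prrx1 had one in 6 of 6 libraries of every day, Cd34 in 0 of 6 at day 0 and 6 of 6 at day 9, Dpp4 in 5 and 3, and Pi16 in 4 and 0. Of the 6 adipocyte markers, Adipoq and Cidec had none at days 0 and 3 and 6 of 6 at days 6 and 9, Plin1 had 0, 5, 6 and 6 over the 4 days, and Fabp4, Lpl and Lipe had 6 of 6 at every day, day 0 included. The muscle (Myod1, Myog, Pax7) and epithelial (Epcam, Krt14, Krt8) markers had none in any library. The endothelial markers Pecam1 (6, 6, 0 and 1 of 6 libraries at days 0, 3, 6 and 9), Cdh5 (6, 4, 0 and 0) and Kdr (5, 0, 0 and 4) had none at day 6. Of the immune markers, Ptprc fell off (6, 6, 3 and 1), Adgre1 had 6, 5, 5 and 4, and Csf1r had 6 of 6 at every day. Of 107 leukocyte genes, 91 had a promoter peak in 6 of 6 libraries at day 0 and 37 of these also in 6 of 6 at day 9.

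The leukocyte genes' summed promoter fold enrichment was lower at days 3, 6 and 9 than at day 0 in both genotypes, but remained well above 0 at day 9, where the members have no call. It ran from 935 to 1002 in WT and 1137 to 1324 in DKO at day 0, 585 to 731 and 656 to 749 at day 3, 426 to 432 and 226 to 449 at day 6, and 321 to 391 and 405 to 468 at day 9. DKO was above WT in every library of days 0 and 9. At day 0 the immune and endothelial lists were also above WT in DKO, and the preadipocyte and adipocyte lists overlapped. At day 9 the adipocyte list was above WT in DKO (118 to 130 against 87.8 to 109) and the preadipocyte list below. The immune and endothelial lists overlapped there. The share over all genes was not computed. The part of the leukocyte genes' promoter peaks in the members' loss and in their higher day 0 rank in DKO was not tested. Without the 83 members nearest to a gene of the list (which leaves in those of Fcrls, Apbb1ip, Gmfg, Dock8 and Tec, not on it), calls at day 3 came to 24.3% ± 11.5 (WT) and 25.2% ± 7.16 (DKO) of what remained, and at day 6 to 6.50% ± 0.883 and 3.91% ± 2.48 (SD, n = 3). As the 83 are 3.80% of the members, leaving them out could move these values only a little. The small change thus tells nothing of their part in the loss. The 83 themselves were called at 37.3% ± 15.8 in WT and 45.4% ± 12.1 in DKO at day 3.

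Regions that separated the genotypes were few. At day 3, 9 members (0.412%) had a peak in 3 of 3 WT and 0 of 3 DKO libraries, where 0.9% of all merged regions and 1.07% of the other day 0 regions did. The reverse held for 15 members (0.686%), where 0.098% of all regions and 0.11% of the other day 0 regions did. At day 6, 8 members (0.366%) had WT peaks alone against 4.55% and 6.53%, and 2 members (0.0914%) had DKO peaks alone against 0.039% and 0.0103%. These differences in share were not tested.

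Among these, Tec, a kinase of lymphocytes and myeloid cells, had a region called in 3 of 3 DKO libraries of day 3 (4.64, 6.69 and 6.14) and in no WT library, and at day 0 it held 5.21, 4.35 and 6.16 in WT and 10.6, 7.71 and 9.30 in DKO. The reverse pattern was seen at a start of Arhgap25, a Rac regulator of blood cells, with 5.12, 5.77 and 5.41 in WT at day 3. At day 6 the region at the start of Cd33, a myeloid sialic acid receptor, held 4.27, 6.64 and 5.10 in WT and no peak in DKO. The other regions called in 3 of 3 WT libraries of day 3 alone included those nearest to Prdm1, Irak2, Fndc1, Nmd3 and Adamts5, and those in DKO alone Slc31a1, Ccdc63, Mid1, Slc30a7, Uvrag, Pkdcc, Cux1, Pde8a and Fer1l6. At day 6 they were Bcl2l14, Nrp1, Ccdc71l, Elf1, Ppp1r3c, Hivep3 and Marcks in WT and Gmfg and G3bp2 in DKO.

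An exact conditional test of the number of WT calls over the 12 libraries of days 3 and 6 was run on all 88505 merged regions with 1 to 11 calls, of which 1285 were members. No region passed an adjusted p under 0.05 (smallest adjusted p 0.8). The smallest p that this exact test can give is 0.005. With 88505 regions adjusted together, very many would have to reach it before any passed. The absence of passing regions thus says little about single regions. At an unadjusted p under 0.05, 2204 regions (2.49%) had an excess of WT calls and 9 (0.0102%) an excess of DKO calls. Of the members, 3 (0.233%) were on the WT side, nearest to Ccdc71l, Fndc1 and Marcks with exact p = 0.02 each, and 0 on the DKO side. Without WT day 3 replicate 3 the WT side had 9 members and 4657 regions, and with the replicate numbers as a block 0 members and 389 regions.

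The 8 members with calls in 5 of 6 libraries of day 6, picked out after their values were seen, were those of Apbb1ip, Fcgr2b, Hdac4, Tnpo1, Tmcc1, Psmg1, Dcn and a gene model without a symbol. Fcgr2b, the inhibitory receptor for IgG, held 7.90, 10.3 and 8.38 in WT and 12.1, 11.6 and 12.1 in DKO at day 0, and 4.18, no peak and 3.96 in WT and 6.14, 6.76 and 4.64 in DKO at day 6. The Dcn region, 50.9 kb from the start of this matrix proteoglycan gene, went the other way at first, from 5.18, 4.08 and 5.33 in WT at day 0 to 7.0, 7.67 and 7.26 at day 3. In DKO it held 4.8, 6.05 and 5.36 at day 0 and 5.32, 6.27 and 5.56 at day 3.

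Transcription factor words were searched on both strands in the 1000 bp around the strongest summit, for the 1804 members away from promoters. A word is a short fixed string, and a match is not a bound site. GAGGAAGT, the PU.1 word, was in 347 of these members (19.2%), in 10.3% of the other day 0 regions, in 6.12% of the regions of day 9 alone and in 7.70% of all merged regions away from promoters. In the 383 members at promoters it was in 22.7%, against 8.08% of the other day 0 promoter regions and 7.90% of all promoter regions. This word was added to the search after the leading genes were seen. The contrast depended on the window: within 300 bp around the summit the word was in 3.27% of members and 2.72% of the other day 0 regions away from promoters, and in 0 of the 62 members nearest to leukocyte genes.

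The PU.1 word was in 19.4% of the 62 distal members nearest to a gene of the leukocyte list and in 19.2% of the other 1742, which still include members at blood cell genes that the list does not hold, such as Apbb1ip. It was in 25.2% of the 163 members called in 5 or 6 of 6 libraries of day 3 and in 16.2% of the 770 with no call at days 3 and 6. Median GC content of the windows was 45.6% in members and 46.9% in the other day 0 regions.

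Of the 19 words, 11 were less frequent in members than in the other day 0 regions. The AP-1 words were in 26.4% of members and 31.2% of the other day 0 regions, TEAD (ACATTCC) in 13.9% and 18.2%, and SP/KLF (GGGCGG) in 12.7% and 18.9%. RUNX (TGTGGTT) was in 27.3% and 23.4%. C/EBP (TTGCNNAA) was in 39.5% of members and 40.4% of the other day 0 regions, and in 50.4% of regions of day 9 alone. MEF2, also added later, was in 2.11% and 1.22%. The plot of words orders all 19 by the ratio of these shares.

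**Figure D5:**
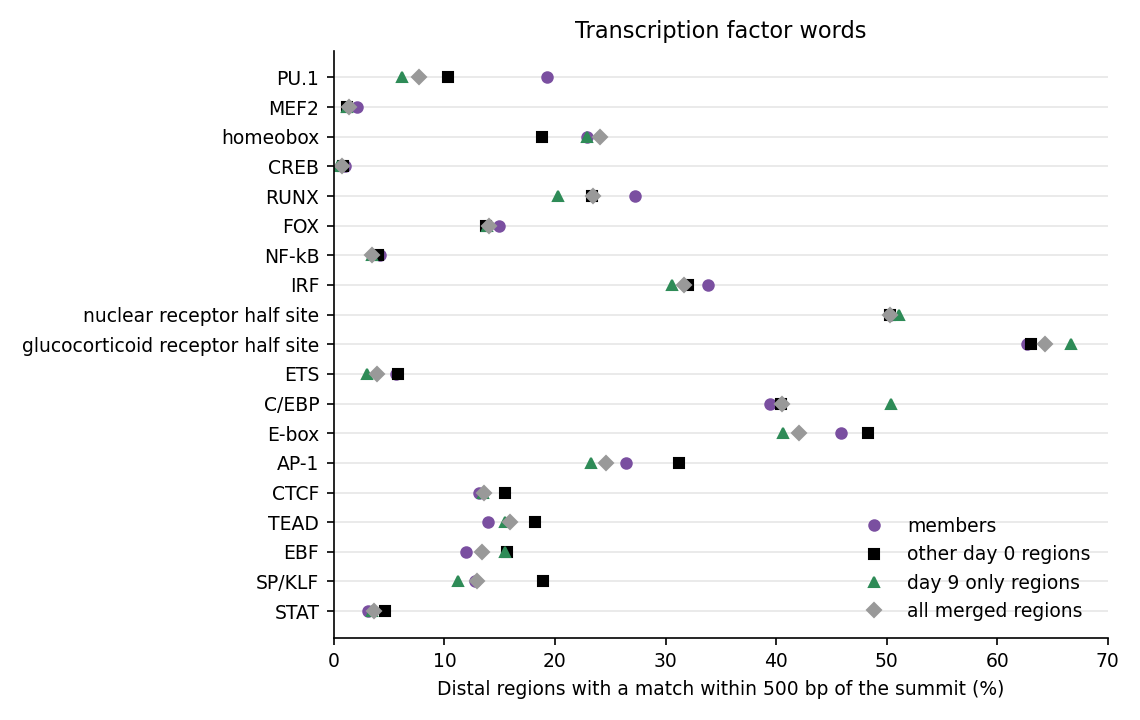
Percent of regions away from promoters with at least 1 match to each transcription factor word within 500 bp of the strongest summit, for members (purple circles), other day 0 regions (black squares), regions of day 9 alone (green triangles) and all merged regions (grey diamonds). Words are ordered by the ratio of members to other day 0 regions, and PU.1 leads with 19.2% against 10.3%.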

How the data were processed

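H3K27ac ChIP-seq peak lists of 24 libraries were read, and 16 input libraries were not used here. Per the labels, the authors used bcl2fastq 2.17, cutadapt 1.18, BWA and MACS2 2.1.1.20160309 on mm10, with peaks called per library. The deposited lists give a fold enrichment (a ratio to local background), −log10 p and −log10 q values, and positions with a summit offset (units of their own). Nothing was renormalized. Regions, calls and ranks were computed in Python 3.11.15 (numpy 2.4.6, pandas 2.3.3, scipy 1.17.1, matplotlib 3.10.9). Peaks sharing 1 bp were joined. Genes and places came from GENCODE M21 and sequences from GRCm38, on which no peak ran past a chromosome's end. Region values are the strongest peak. The members, gene lists and words were chosen with earlier results of these data known. The named regions are the 10 members with the highest median −log10 q at day 0, the genes with the most members, those called in 3 of 3 libraries of 1 genotype and 0 of 3 of the other, and list genes. Percent called per library was compared by exact permutation tests with Benjamini-Hochberg adjustment over 11 tests, and single regions by an exact conditional test across all regions, tested on simulated data. Alternatives changed thresholds, list lengths, the overlap that counts, the rule and the libraries. Intervals for counting error were not made, as shares of regions are not read counts. Same-numbered WT and DKO libraries did not deviate together (correlations -0.0278 to 0.0505 over 12 pairs), and the main tests left them unpaired. The labels do not say whether they were prepared together, and this check cannot exclude it. Results with the replicate numbers as a block are therefore also given.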

Additional observations from a re-analysis of the deposited data

How the results depend on the processing

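DKO minus WT of the members' percent relative to the other day 0 regions, over days 3 and 6, was positive in all 15 alternatives (8.24 to 21.8 points, exact permutation p 0.005 to 0.0556). Both falls from day 3 to day 6 kept their direction, and some fall between days 0 and 9 is required by the rule. Leaving out libraries gave 2187 to 5149 members. It moved the DKO minus WT differences to -5.39 to 4.42 points at day 3, -5.29 to -2.19 at day 6, -3.90 to -0.0312 over both days, -9.38 to 2.98 for the change between days, 8.24 to 12.4 for the relative difference (with exact p = 0.0556, the smallest that 2 against 2 allow, when one replicate number was left out of all groups), and -34.4 to 15.1 kb for covered length. Members chosen anew numbered 594 with the 20000 strongest peaks, 5271 with at least 5 of 6 and at most 1 of 6, 5031 by WT alone and 5585 by DKO alone. Over both days DKO minus WT turned to 0.360 points at −log10 q of at least 5, 7.66 (exact p = 0.015) with 20000 peaks and 3.74 with 45000, and at day 6 to 0.898 with 20000 and 1.14 with 45000. At day 3 it turned to -0.506 (5 of 6), -1.55 (WT alone) and -0.119 (DKO alone). Strength of the remaining calls turned to -5.80 with 20000 peaks and -14.7 with 45000 (exact p = 0.01), and passed at 5.31 with summits within 250 bp (exact p = 0.035). Covered length, near 0 to begin with, was 27.3 kb (exact p = 0.005) with 45000 peaks, -0.432 with summits, -1.51 with peaks over 50% of the region and -1.51 without leukocyte gene members (added after the data were seen), -44.4 with 5 of 6, -54.7 by WT and -53.4 by DKO. The cause was not tested, except that equal list lengths remove more peaks from the longer WT lists by construction. Under the replicate block (the same value of 11.2 points for the relative difference, exact p = 0.0312) no tested result crossed 0.05, but the regions with an unadjusted p under 0.05 went from 2204 to 389 on the WT side and 9 to 2 on the DKO side. No alternative gave a region past an adjusted p of 0.05. With 1 replicate number left out of all groups the smallest p of the exact conditional test was 0.0556, so no region could pass there. Shallow WT day 3 replicate 3 and short DKO day 6 replicate 3 limit what a missing call shows.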

Other observations

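Members ran in clusters at a few places. The 9 Tns3 members and the region nearest to Pkd1l1 lie along one stretch of chromosome 11, from 8536278 to 8766621, and 1 of these 10 was called in more than 1 library at day 3.

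Tnip3, Dock8, Fcrls, Dscam, Lyzl4, H60b, Padi2, Stap1, Pdgfb, St18 and 1 gene model without a symbol had 3 or more members and no other region called in 6 of 6 day 0 libraries (11 genes, picked out after their values were seen). Of these, Pdgfb, a growth factor ligand, had a promoter region with 6.82, 9.78 and 8.33 in WT and 6.73, 8.34 and 7.99 in DKO at day 0, and its 3 members had 1 call in the 12 libraries of days 3 and 6. Across chromosomes, members were 5.24% (X) to 8.41% (6) of the regions called in 6 of 6 day 0 libraries, and 0 of 4 on Y.

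At day 6, 78 members (3.57%) had a call after none at day 3.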
